A study of Mus musculus with 8 samples.

Results

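The 131 genes described here are the very long genes of the deposited count table: those with a listed length of at least 300 kb and a mean of at least 50 counts over the 8 libraries. Apart from 5 genes left out by name, they were selected on length and abundance, not on their difference between genotypes. The choice of the group was made with earlier results of these data known. The table held 11911 genes, of which 199 reached 300 kb. Of these 199, 63 fell below the count minimum, and 5 (Foxp1, Rora, Mid1, Bach2 and Zfp407) were left out by name. Mid1 alone of these 5 had an adjusted p below 0.05 in edgeR. All 131 members passed the filter on low counts and were tested among 11317 genes.

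The libraries came from naïve CD4+ T cells purified from the spleen and cultured for 36 h with TGF-β, anti-CD3 and anti-CD28 while IFN-γ and IL-4 were blocked, conditions that turn naïve cells into induced regulatory T cells (iTregs). Both genotypes carried the Foxp3 YFP-Cre allele on the C57BL/6J background, which makes Cre recombinase and a yellow fluorescent protein wherever Foxp3, the defining transcription factor of regulatory T cells, is switched on. The controls, labelled WT, carried this allele alone (4 libraries). The knockout, labelled KO and written Tdrd3 fl/fl/Foxp3 YFP-Cre, also carried floxed Tdrd3 (4 libraries), so that Tdrd3 can be deleted only in cells that have begun to express Foxp3. No sorting of YFP+ cells was described for the sequenced material, so cells that had not yet recombined the gene can contribute RNA. Age and sex of the animals were not given for these libraries. The methods describe 3 replicates from independent mice per genotype, whereas the labels give 4 libraries, all of which were used. P values measure the spread between these libraries, which may in part be technical.

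Very long genes owe their length almost wholly to introns. RNA polymerase II must stay on the template far longer to finish one of them than to finish a short gene, and the DNA it moves along becomes overwound ahead of the enzyme and underwound behind it, where the new RNA can pair with the template strand to form an R-loop. Topoisomerases remove this strain, and in neurons the inhibition of topoisomerase I is known to lower long genes preferentially. TDRD3 is a Tudor domain protein that reads methylated arginines on histones and on RNA polymerase II and holds topoisomerase IIIβ (Top3b), which acts on DNA and RNA and limits R-loops. The comparison of the 131 genes between genotypes asks whether loss of TDRD3 in differentiating iTregs was accompanied by different RNA levels of genes of this kind.

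The targeted gene was examined first. Tdrd3 was at 18.8, 15.1, 9.95 and 17.7 CPM (counts scaled to a common library size of 1e6) in WT1 to WT4 and at 13.7, 10.7, 12.9 and 11.1 CPM in KO1 to KO4. The library labelled WT3 therefore held less Tdrd3 than every library labelled KO, and the genotypes overlapped (log2 fold change −0.35 ± 0.15 (SE), n = 4 per genotype, adjusted p = 0.496 in edgeR's quasi-likelihood test). Whether that library is mislabelled cannot be settled from these values, and every comparison takes it as labelled. Total counts ranged from 13258239 to 16001677 per library. Summed over 5 T cell markers, levels lay between 1500 and 1610 CPM in the 8 libraries. The 2 B cell markers in the table summed to at most 2.72 CPM, and the myeloid marker Lyz2 reached at most 1.22 CPM. The cytotoxic T cell markers Cd8a and Cd8b1 summed to 7.73 to 21.6 CPM in the WT libraries and 6.67 to 8.35 CPM in the KO libraries. The 4 regulatory T cell markers (Foxp3, Il2ra, Ctla4 and Ikzf2) summed to 2970 to 3100 CPM in the WT libraries and 2810 to 2910 CPM in the KO libraries. These sums did not overlap, and their part in the results below was not tested. Foxp3 itself was a small part of them, at 110 ± 12.5 CPM in WT and 88.4 ± 13.3 CPM in KO (SD, n = 4 each). Its genotypes overlapped, with a log2 fold change of −0.31 ± 0.09 (SE) and an adjusted p of 0.152 in edgeR. In these bulk samples fewer cells of a type and less RNA per cell cannot be told apart. Across all genes KO1 and KO4 were closer to each other (chi-square per degree of freedom 2.59) than any other pair of KO libraries (3.78 to 4.85). WT1 and WT2 were likewise closer (2.698) than any other WT pair (4.95 to 6.31). Counts below are also given without KO1 and KO4.

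The members ranged from 300.5 to 1504 kb, with a median of 387.3 kb, and lay on 20 chromosomes with at most 13 on any of them. In the GENCODE annotation of the same genome build (GRCm39) their canonical transcripts had a median of 17 exons, against 9 over all tested genes. The largest intron had a median of 110.6 kb against 6.663 kb, while the spliced transcript had a median of 6.342 kb, or 1.73% of the gene's span, against 3.453 kb and 15.3%. A fully spliced RNA of such a gene thus comes from a small part of the DNA that was transcribed. How far the sequenced RNA was spliced was not measured. The members were a little less abundant than the whole, with a median of 27.6 CPM against 37.5 CPM, and per kb of spliced transcript a median level of 5.05 against 11.2 CPM.

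The listed length is the span from the first to the last annotated start and end, and for 25 of the 131 members the canonical transcript itself spanned less than 300 kb. Sema6d, listed at 577.802 kb, had a canonical transcript of 57.828 kb that begins near the 3′ end of the span. Fry, listed at 379.109 kb, had one of 238.18 kb. Tmem267 was listed at 448.021 kb with a canonical transcript of only 7.432 kb. Inpp4b (785.353 kb), Atxn1 (415.223 kb) and Plcl1 (348.365 kb) were long by either measure. The counts do not say which start a read came from.

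The sequences just before the canonical start are shown for 3 members on which the comparison turns, the lower Sema6d and Inpp4b and the higher Plcl1. Each runs 250 bases 5′ to 3′ up to the base before the start, in GRCm39, on the strand of the gene. Capitals mark the letters CACCC or their reverse complement GGGTG, the core of the CACCC box that Krüppel-like factors such as KLF2 bind.
Sema6d, chr2:124451851-124452100, plus strand: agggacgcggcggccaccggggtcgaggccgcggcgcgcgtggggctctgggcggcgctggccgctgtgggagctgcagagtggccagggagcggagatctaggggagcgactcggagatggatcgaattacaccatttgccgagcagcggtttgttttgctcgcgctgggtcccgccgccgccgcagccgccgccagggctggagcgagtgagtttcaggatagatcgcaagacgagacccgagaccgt
Inpp4b, chr8:82068941-82069190, plus strand: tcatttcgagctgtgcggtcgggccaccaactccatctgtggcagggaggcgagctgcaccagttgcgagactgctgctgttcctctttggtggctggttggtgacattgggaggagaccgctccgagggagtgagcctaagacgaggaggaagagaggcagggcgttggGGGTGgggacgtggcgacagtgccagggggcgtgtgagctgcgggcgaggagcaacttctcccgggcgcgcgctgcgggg
Plcl1, chr1:55444830-55445079, plus strand: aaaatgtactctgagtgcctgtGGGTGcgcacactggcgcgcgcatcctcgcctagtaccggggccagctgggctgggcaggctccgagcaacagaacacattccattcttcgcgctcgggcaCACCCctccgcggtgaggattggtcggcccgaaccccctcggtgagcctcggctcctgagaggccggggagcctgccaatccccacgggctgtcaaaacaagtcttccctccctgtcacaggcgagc
All 3 were rich in G and C, at 69.2% for Sema6d, 66.0% for Inpp4b and 65.2% for Plcl1, and held 32, 19 and 19 CG dinucleotides. Sema6d held no copy of the CACCC letters on either strand, Inpp4b held 1 copy, and Plcl1 held 2. Windows of the same kind held CACCC on either strand in 61.1% of the 131 members and in 55.5% of the 11316 tested genes with an annotated start, so that the motif is common in any promoter of this size. The forkhead letters GTAAACA were found in 2.29% of members and 2.28% of all, and the TATA box letters TATAAA in 6.11% and 7.0%. Median GC content was 59.6% for members and 56.8% for all, and the excess of G over C in the first 500 bases after the start, a feature of R-loop-prone promoters, had a median of 5.78% and 6.08%. These are descriptions of letters in a window and not of bound sites.

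None of the 131 members passed an adjusted p of 0.05 with all 8 libraries in edgeR. In edgeR's test 0 of 131 members did, where 0.265% of all tested genes did (23 lower, 0.203%, and 7 higher, 0.0619%). DESeq2 called 2 members (Sema6d and Atxn1) and 0.716% of all genes, and limma's voom with quality weights called 1 (Sema6d) and 0.839% of all genes. Without KO2 edgeR called 4 members (Atxn1, Nebl, Fry and Inpp4b) and 1.42% of all genes, and without WT4 it called 2 (Sema6d and Hivep3) and 0.789% of all genes. At an unadjusted P below 0.05, edgeR had 11 members lower in KO (8.4%, against a background of 4.91% of all tested genes) and 10 higher (7.63%, against 4.38%). The share past this threshold was thus above the background to a like extent in both directions. It was also above the background among genes of 100 to 300 kb, at 6.13% lower and 5.52% higher. Had the 5 genes left out by name been kept, 1 of 136 (Mid1) would have passed the adjusted threshold, so the count of 0 depends on that exclusion. Mid1 had a log2 fold change of −0.61 ± 0.10 (SE) and an adjusted p of 0.00637 in edgeR. Every KO library lay below every WT library in Mid1.

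At a joint cutoff of an unadjusted P below 0.05 and a change of at least 1.2-fold (called the cutoff in what follows), 4 members were lower in KO (3.05%, background 1.7%) and 6 were higher (4.58%, background 1.78%). The lower genes were Fry, Tmem267, Sema6d and Prdm16, and the higher genes were Atxn1, Nebl, Plcl1, Frmd4a, Ust and Tln2. Without KO1 and KO4, 2 were lower and 1 was higher, and over all genes 1.03% and 1.01% were. Without WT3 the counts were again 4 and 6, with 1.65% and 1.6% over all genes. Among genes of 100 to 300 kb the shares were 1.84% lower and 2.1% higher. Of the 4 lower members 3 (Fry, Tmem267 and Sema6d) belonged to the 25 whose canonical transcript spans less than 300 kb, and of the 6 higher members 1 (Nebl) did.

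The middle of the group lay close to 0. The median log2 fold change of the 131 members was −0.014, against 0.0013 over all tested genes, with 76 members lower and 55 higher in KO. The lower side held 58.0% of members and 49.4% of all genes. By length class the medians were 0.005 for genes under 10 kb, 0.002 for 10 to 30 kb, 0.0002 for 30 to 100 kb and −0.005 for 100 to 300 kb. All 182 tested genes of 300 kb and over, members included, had a median of −0.011. Over these classes the median fell at each step, and the share lower rose from 47.9% to 55.5%. The steps were small beside the quartiles over all tested genes, −0.062 and 0.065. Within the members, the 71 of 300 to 400 kb had a median of 0.003 with 34 lower, the 30 of 400 to 500 kb a median of −0.058 with 22 lower, and the 30 of 500 kb and over a median of −0.031 with 20 lower. The medians therefore did not change steadily with length among the members. These medians are descriptions and were given no test. Among the 106 members with a canonical transcript of at least 300 kb the median was −0.023, with 64 lower, and among the other 25 it was 0.005, with 12 lower.

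**Figure D1:**
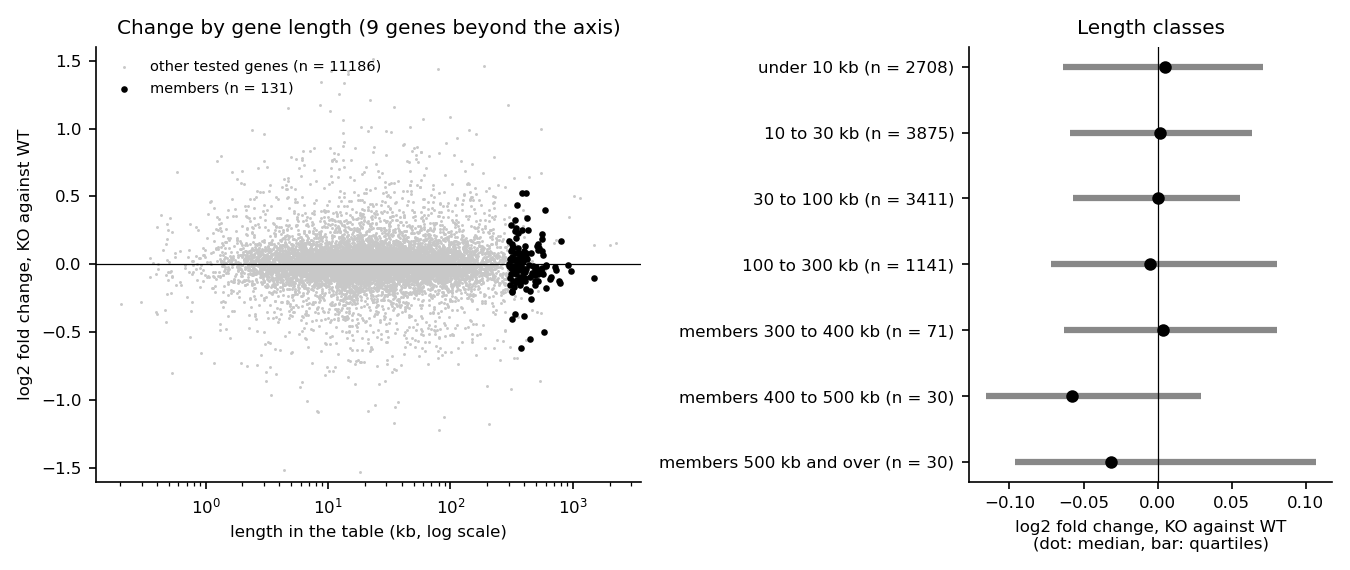
Change of every tested gene against its listed length. On the left, each point is a gene, with the listed length in kb on a log axis and the log2 fold change of KO against WT on the vertical axis, and the 131 members are black; on the right, dots are medians and bars run from the lower to the upper quartile for each length class. The members scatter on both sides of 0, and the 30 members of 400 to 500 kb have the lowest median, −0.058.

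Summed over its genes, the group took 0.758, 0.749, 0.735 and 0.773% of all counts in WT1 to WT4 and 0.725, 0.741, 0.746 and 0.748% in KO1 to KO4. The KO values lay inside or just under the WT range, and the means were 0.754% ± 0.0161 and 0.740% ± 0.0102 (SD, n = 4 each). Libraries of one genotype differed among themselves by more than the genotype means did. The median deviation of the members from their own means was −0.022 in WT3 and 0.029 in WT4 on the log2 scale, and −0.019 in KO1 and 0.035 in KO4. KO4 held the highest value of the 8 libraries in 26 members and the lowest in 24, KO1 the lowest in 25, and WT3 the lowest in 23.

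**Figure D2:**
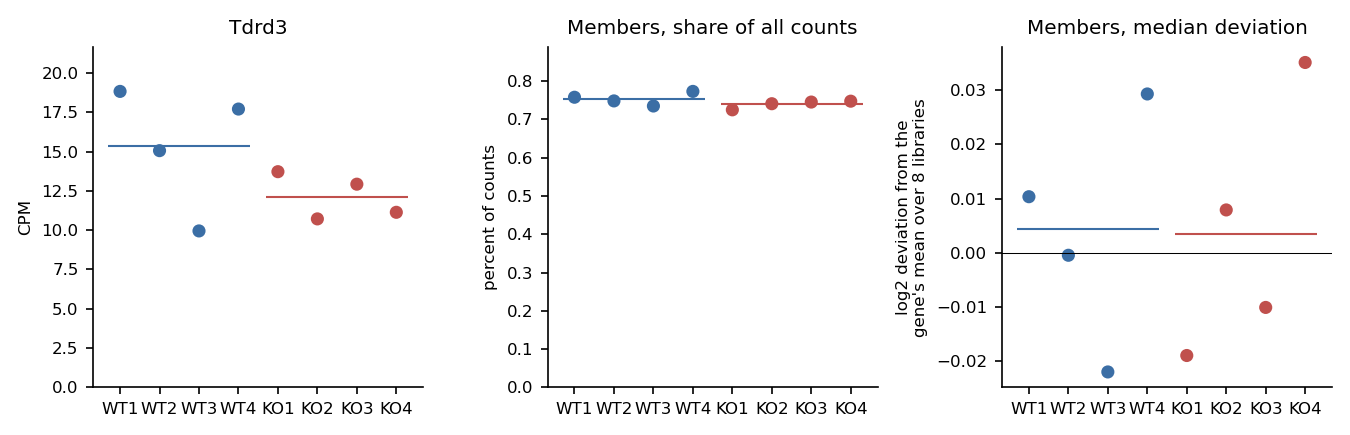
Tdrd3 and the long genes in each of the 8 libraries, with WT in blue, KO in red and the horizontal lines at the genotype means. The panels show Tdrd3 in CPM, the members' share of all counts in percent, and the median over the 131 members of each gene's log2 deviation from its mean. WT3 has the lowest Tdrd3, 9.95 CPM, and KO4 and WT4 have the highest median deviations.

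How far each member could have changed is bounded by its interval. For 65 of the 131 members (49.6%, against 59.1% of all tested genes) the 95% interval of the change lay wholly within 1.2-fold in either direction. Members varied slightly more between replicates than the whole, with a median biological coefficient of variation of 7.29% against 6.35%. Pde4d, a cyclic AMP phosphodiesterase, had the longest listed span, 1504 kb, while its canonical transcript spanned 834.747 kb. It was at 117 ± 7.90 CPM in WT and 109 ± 5.41 CPM in KO (SD, n = 4 each). The interval of its log2 fold change was −0.21 to 0.01. Macf1, the spectraplakin that links microtubules to actin and the most abundant member, was at 669 ± 19.5 and 657 ± 20.3 CPM, with an interval of −0.10 to 0.05. Both intervals leave out a change of 1.2-fold in either direction.

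Values for other members of great length or abundance follow. Celf2, an RNA-binding regulator of splicing in T cells that is listed at 970 kb, had a log2 fold change of −0.05 ± 0.04 (SE). Dock2, the exchange factor that activates Rac in migrating lymphocytes, had −0.02 ± 0.04. Wwox, a gene of 913 kb over a common fragile site, had −0.01 ± 0.12, with an interval of −0.26 to 0.24 at a level of 10.8 CPM in both genotypes. Camta1, a calmodulin-binding transcription activator of 802 kb, had 0.17 ± 0.15. Per kb of spliced transcript the highest levels belonged to Snd1, itself a Tudor domain protein, at 87.4 CPM per kb, then to Msi2, an RNA-binding protein, at 72.0, Dock2 at 55.3, Rabgap1l at 50.9 and Pde4d at 46.1. Snd1 had a log2 fold change of −0.06 ± 0.04, Msi2 of 0.07 ± 0.05 and Rabgap1l, a regulator of Rab GTPases, of −0.07 ± 0.06, none with an adjusted p under 0.68 in edgeR.

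The members lowest in KO were led by 4 genes. Sema6d, a transmembrane semaphorin that acts as a ligand and receptor in axon guidance and in T cell activation (chr2:123931889-124509690, plus strand), was at 23.9, 23.4, 29.9 and 20.3 CPM in WT1 to WT4 and at 16.3, 15.2, 17.7 and 20.03 CPM in KO1 to KO4. Every KO library lay below every WT library, although KO4 and WT4 were only a little apart. The log2 fold change was −0.49 ± 0.11 (SE), with an adjusted p of 0.0751 in edgeR, and it was −0.57 without KO1 and KO4. An exact two-sided permutation test over the 8 libraries gave p = 0.0286, the smallest that 4 against 4 allows. Any gene without overlap gets this value, and 4.89% of all tested genes had no overlap.

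Fry, a large scaffold protein of the NDR kinase pathway in cell shape and mitosis (chr5:150042110-150421218), was at 7.80, 8.44, 8.06 and 6.16 CPM in WT and at 4.65, 6.21, 3.91 and 5.03 CPM in KO. Only WT4 and KO2 crossed. Its log2 fold change, −0.61 ± 0.17, was the largest decrease of any member, with an adjusted p of 0.152 in edgeR. Without KO1 and KO4 it was −0.58.

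Prdm16, a zinc finger regulator of brown fat and of haematopoietic stem cells (chr4:154400582-154721330), was at 21.5, 20.7, 16.3 and 14.9 CPM in WT and at 11.5, 17.4, 15.6 and 10.7 CPM in KO. KO1 and KO4 lay below every WT library, while KO2 and KO3 lay inside the WT range. The log2 fold change was −0.40 ± 0.15 with an adjusted p of 0.345, and −0.15 without KO1 and KO4. Tmem267, a transmembrane protein gene on chromosome 13, was at 7.44 ± 1.248 CPM in WT and 5.09 ± 1.36 CPM in KO (SD, n = 4 each), with a log2 fold change of −0.55 ± 0.19 and an adjusted p of 0.317. Without KO1 and KO4 it was −0.29. The KO3 value, 6.54 CPM, lay inside the WT range of 6.11 to 8.85 CPM.

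Among the members highest in KO, 1 or more KO libraries often lay at the WT level. Atxn1, the ataxin-1 gene, whose product is a chromatin-bound partner of the repressor Capicua (chr13:45703231-46118484, minus strand), was at 21.6, 22.04, 19.3 and 21.4 CPM in WT and at 34.0, 21.4, 29.9 and 36.5 CPM in KO. KO1, KO3 and KO4 lay above all WT libraries and KO2 lay among them. The log2 fold change was 0.53 ± 0.12 with an adjusted p of 0.0758 in edgeR. Without KO2 its adjusted p was 0.000487, and without KO1 and KO4 its log2 fold change was 0.28.

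Nebl, a nebulin family protein of actin filaments (chr2:17348720-17736275), had the same arrangement, at 11.2, 11.4, 11.9 and 15.6 CPM in WT and 20.1, 12.2, 18.6 and 21.5 CPM in KO. KO2 again lay within the WT range. Its log2 fold change was 0.53 ± 0.15 with an adjusted p of 0.164, and 0.29 without KO1 and KO4. Frmd4a, a FERM domain scaffold of epithelial polarity, was at 16.6 ± 3.13 CPM in WT and 21.9 ± 3.47 CPM in KO, with KO3 (17.5 CPM) inside the WT range and an adjusted p of 0.241 in edgeR. Its log2 fold change was 0.40 ± 0.13, and 0.23 without KO1 and KO4.

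Plcl1, a phospholipase C-like protein without catalytic activity that binds inositol phosphates (chr1:55445080-55793444), was the one higher member at the cutoff whose genotypes did not overlap. It was at 4.66, 3.93, 4.07 and 5.31 CPM in WT and at 5.81, 6.02, 6.09 and 6.38 CPM in KO. The 4 KO libraries lay close together and above every WT library. The log2 fold change was 0.43 ± 0.17, with an adjusted p of 0.388 in edgeR, and it was also 0.43 without KO1 and KO4. The exact permutation p of 0.0286 follows from the separation alone. Ust, a sulfotransferase of dermatan and chondroitin chains, had 0.29 ± 0.12, and Tln2, a talin that couples integrins to actin, had 0.26 ± 0.12, both with KO values that reached into the WT range. Without KO1 and KO4 Ust had 0.26 and Tln2 0.20.

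**Figure D3:**
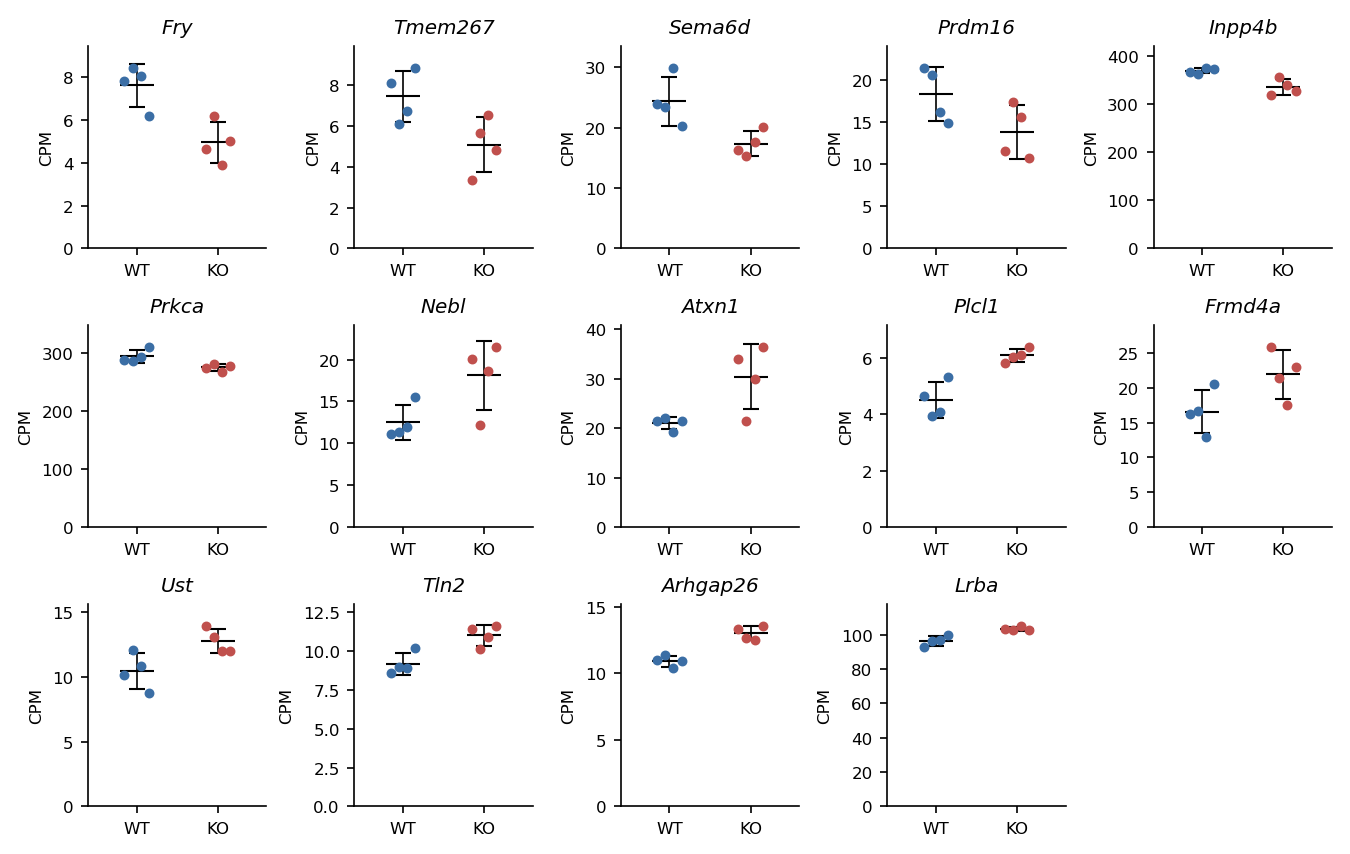
Levels of 14 members in each library, in CPM on axes that start at 0, with WT in blue and KO in red, and bars giving the mean and SD of 4 libraries. Shown are the 10 members past an unadjusted P below 0.05 and 1.2-fold and the 4 others whose genotypes did not overlap (Inpp4b, Prkca, Arhgap26 and Lrba). In Atxn1 and Nebl 1 KO library lies at the WT level and the other 3 lie above it.

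Some members differed little in size but without overlap. Genotypes did not overlap in 3 members on the lower side (Inpp4b, Prkca and Sema6d, 2.29%, against a background of 2.63%) and in 3 on the higher side (Arhgap26, Lrba and Plcl1, 2.29%, against 2.25%), a share like that of all tested genes. Inpp4b, a phosphatase that removes the 4-phosphate of phosphoinositides downstream of PI3K (chr8:82069185-82854543, plus strand), was at 368, 363, 376 and 373 CPM in WT and at 320, 357, 340 and 328 CPM in KO. Every KO library lay below every WT library, and the WT libraries lay closer together than the KO libraries. The log2 fold change was −0.14 ± 0.04, with an adjusted p of 0.171 in edgeR, and it was −0.09 without KO1 and KO4. The exact permutation p of 0.0286 for Inpp4b again follows from the separation alone. Prkca, the classical protein kinase Cα, was at 294 ± 11.1 and 274 ± 6.33 CPM, with a log2 fold change of −0.10 ± 0.04 and an adjusted p of 0.439. Part of one of its exons overlaps another annotated gene, Gm52957, on the same strand, so its counts may be shared. On the higher side Lrba, the trafficking protein that protects CTLA-4 from degradation in regulatory T cells, was at 93.0, 96.3, 96.9 and 100 CPM in WT and at 104, 103, 105 and 103 CPM in KO. The groups did not overlap, but the change was 0.10 ± 0.05 on the log2 scale, with an adjusted p of 0.496. Arhgap26, a GTPase-activating protein, was at 10.9 ± 0.405 and 13.0 ± 0.534 CPM, with a log2 fold change of 0.25 ± 0.10 and an adjusted p of 0.442. Prkca and Lrba were singled out after their values were seen.

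The members were also grouped by role. Over all tested genes 1.7% were lower and 1.78% higher at the cutoff, and 9.3% had an unadjusted P below 0.05. In groups of 10 to 23 genes such shares amount to few genes or none, so the counts per role are descriptions. The largest group, regulators of small GTPases and of the cytoskeleton (23 genes), had a median log2 fold change of −0.02, with 15 lower and 8 higher. At the cutoff it held 1 lower gene (Fry) and 3 higher genes (Nebl, Frmd4a and Tln2). Elmo1, the partner of Dock2, had a log2 fold change of −0.07 ± 0.05, Arhgap15, a Rac GTPase-activating protein, −0.11 ± 0.07, and Diaph3, a formin that nucleates actin, −0.06 ± 0.05. Vav3, an exchange factor activated by antigen receptors, had −0.07 ± 0.16 and ran from 9.003 CPM in KO1 to 17.2 CPM in KO2, so that its KO libraries spanned more than all WT libraries. Without KO1 and KO4 it was 0.21. Utrn, the utrophin gene, was lower at an unadjusted P below 0.05 with −0.13 ± 0.05 and an adjusted p of 0.38 in edgeR, and Dock4, an exchange factor for Rac and Rap, had −0.38 ± 0.19 at 5.42 CPM in WT.

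Kinases and second messenger enzymes (15 genes) had a median of 0.005, with 7 lower and 8 higher, and 1 gene at the cutoff (Plcl1). Among protein kinase C genes Prkca had −0.10, Prkce −0.15 ± 0.11 and Prkcb, the isoform of antigen receptor signalling to NF-κB in B cells, 0.03 ± 0.06, which was −0.01 without KO1 and KO4. Of the cyclic AMP phosphodiesterases Pde4d had −0.10 ± 0.05 and Pde4b 0.11 ± 0.07, neither with an adjusted p under 0.62 in edgeR. Itpr1, an inositol trisphosphate receptor that releases calcium from the endoplasmic reticulum, had 0.08 ± 0.07. Sh3kbp1, the adaptor also known as CIN85 that binds the ubiquitin ligase CBL, had −0.11 ± 0.05 with an adjusted p of 0.416.

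Transcription and chromatin genes (22) had a median of −0.006, with 12 lower and 10 higher, and held Prdm16 and Atxn1 at the cutoff. Cux1, a homeobox factor, was at 95.4 ± 5.39 and 83.3 ± 9.04 CPM, with a log2 fold change of −0.20 ± 0.07 and an adjusted p of 0.286 in edgeR. KO1 and KO4 were its lowest libraries, at 76.5 and 76.0 CPM, and without both the log2 fold change was −0.08. Tox, a factor of T cell development and exhaustion, had −0.10 ± 0.09, Zbtb20, a BTB zinc finger repressor, −0.12 ± 0.10, Tcf4, an E protein, −0.13 ± 0.12, and Aff3, a component of super elongation complexes, −0.03 ± 0.05. Runx2, a RUNX family factor, had 0.05 ± 0.23 at 4.06 CPM in WT, and Hivep3, a large zinc finger protein, 0.13 ± 0.08 at 250 ± 38.9 CPM in WT. Maml3, a Notch coactivator, had the highest value of this group after Atxn1, 0.34 ± 0.22, at 3.34 CPM in WT.

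Membrane trafficking genes (16) had the lowest median of the 8 roles, −0.05, with 12 lower and 4 higher and none at the cutoff. Exoc6b, a subunit of the exocyst that tethers secretory vesicles, had −0.20 ± 0.08 with an adjusted p of 0.419 in edgeR. Snx29, a sorting nexin, had 0.25 ± 0.21. Genome maintenance and cell cycle genes (10) had a median of −0.02 with 6 lower, and no member at an unadjusted P below 0.05 (background 9.3%). Pola1, the catalytic subunit of DNA polymerase α, was at 122 ± 2.72 and 120 ± 6.12 CPM, Xrcc4, the partner of DNA ligase IV, had 0.10 ± 0.12, and Ttc28, a tetratricopeptide protein, −0.12 ± 0.16.

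Channels, transporters, receptors and ligands (10) had a median of −0.03 with 6 lower, and Sema6d was the 1 gene at the cutoff. Kcnq5, a voltage-gated potassium channel, was at 28.5 ± 1.13 and 32.4 ± 2.84 CPM, with 0.19 ± 0.08 and an adjusted p of 0.435 in edgeR. Ntrk3, the neurotrophin-3 receptor, showed how far a lower-level long gene can scatter within a genotype, at 17.7, 20.4, 10.3 and 8.85 CPM in WT and 18.6, 11.7, 13.8 and 23.0 CPM in KO. RNA and protein handling genes (13) had a median of −0.04 with 8 lower and none at an unadjusted P below 0.05 (background 9.3%). Fto, an RNA demethylase, had −0.04 ± 0.05, Nedd4l, a ubiquitin ligase, −0.17 ± 0.09, and Ube2e2, a ubiquitin-conjugating enzyme, −0.20 ± 0.19. The remaining 22 genes, of metabolism and other roles, had a median of 0.01 with 10 lower and held Tmem267 and Ust at the cutoff. Focad, a focal adhesion protein, had 0.15 ± 0.06 with an adjusted p of 0.44, and Adk, adenosine kinase, 0.10 ± 0.07. On 6 narrower lists of the same roles that covered 86 of the members, medians ran from −0.05 for small GTPase regulators and cytoskeleton to 0.03 for transcription and chromatin factors.

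**Figure D4:**
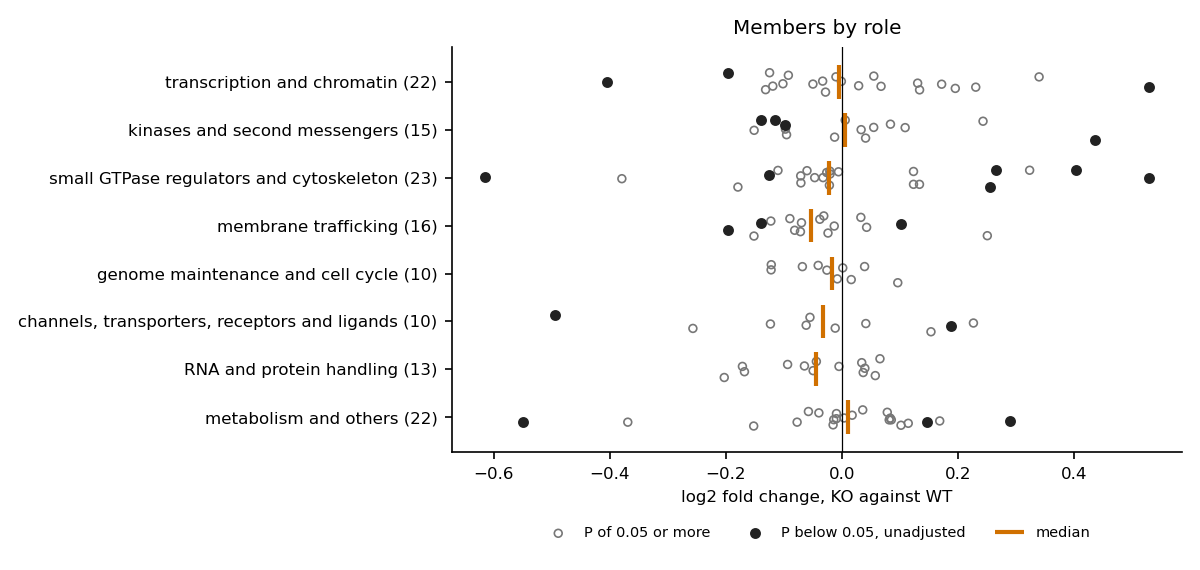
Log2 fold change of KO against WT for each of the 131 members, by role, with the number of genes in brackets. Each point is a gene, filled points have an unadjusted P below 0.05 in edgeR, and orange lines are medians. The medians lie between −0.05 and 0.01.

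The machinery that deals with strain and R-loops in transcribed genes was read from a list of 28 genes, all of them tested. Its median log2 fold change was 0.006, and 2 of the 28 had an unadjusted P below 0.05, namely Tdrd3 itself and Rnaseh2b, or 7.14% against 9.3% of all tested genes in either direction. Rnaseh2b, a subunit of the enzyme that cuts RNA paired with DNA, was at 42.0, 40.2, 43.7 and 42.8 CPM in WT and at 50.6, 46.2, 45.2 and 48.9 CPM in KO. All KO libraries lay above all WT libraries, with a log2 fold change of 0.18 ± 0.06 and an adjusted p of 0.303 in edgeR. Rmi1, a subunit of the BLM helicase complex, lay the other way, with its KO libraries at 45.2 to 46.4 CPM, all below the WT libraries at 47.2 to 49.9 CPM. Its log2 fold change was −0.10 ± 0.06 with an adjusted p of 0.66 in edgeR. Top3b was at 50.8 ± 3.19 and 51.6 ± 2.31 CPM, with a log2 fold change of 0.02 ± 0.06. Top1, the topoisomerase best known for long genes, had 0.08 ± 0.05 and Top2b 0.01 ± 0.04. Of 42 RNA polymerase II elongation factors listed, 41 were in the table. Their median was 0.01, and 2 (4.88%, against the same 9.3%) had an unadjusted P below 0.05, the elongation factor Tcea1 with 0.12 ± 0.05 (adjusted p = 0.508) and Larp7, which binds the 7SK RNA, with 0.13 ± 0.06 (adjusted p = 0.533). In Rtf1, a partner of the PAF1 complex, all KO libraries lay above all WT libraries, with 0.06 ± 0.04 (adjusted p = 0.761 in edgeR). Genotypes thus did not overlap in 1 lower and 1 higher of the 28 genes and in 1 of the 41. Over all tested genes 4.89% had no overlap.

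Genes on both sides of the selection limits had the following values. Pam (300.533 kb) and Cacna1a (301.608 kb) were the members closest to the length limit, with log2 fold changes of 0.17 and −0.01. Akap13 (299.076 kb) and AW554918 (298.323 kb) lay just outside, with −0.05 and −0.08. Apbb2 and Cacna1d were the members of lowest mean count, 51.4 and 53.7, with 0.11 ± 0.26 and −0.26 ± 0.26, and Dock3 and 2210408I21Rik lay just below the minimum at 45.8 and 45.0 counts, with −0.24 ± 0.26 and 0.005 ± 0.29. The standard errors at this abundance exceed most of the changes in the group.

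Shared sequence limits some single values. Exons of 15 members overlap those of another annotated gene on the same strand and exons of 87 overlap one on the opposite strand, and 12 members have a protein-coding gene inside their span. The reads of Atxn1 may be shared with an overlapping gene model on its strand. Whether the counting used strand was not given in the sources used here. Of the members' count values 32.6% were not whole numbers, against 43.0% over all genes. The estimation step divides reads that fit several places between genes.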

How the data were processed

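RNA was measured in 8 libraries of iTreg cultures, 4 of each genotype. Total RNA was depleted of ribosomal RNA before library construction. The authors aligned reads to GRCm39 with STAR 2.7.8a and quantified them in Partek Flow with its E/M algorithm, and the deposited estimated counts per gene were filtered but not normalized. The highest count of any listed gene was at least 10. The annotation release and the use of strand were not given in the sources used here. The table's end coordinate lay 1 base past the annotated end where the models matched, and ends are given here minus 1.

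Estimated counts were rounded to whole numbers and fitted over all genes with edgeR 4.0.16 (filterByExpr, TMM, quasi-likelihood F-test, genotype only) under R 4.3.3, and P values were adjusted by Benjamini-Hochberg over the 11317 genes tested. CPM were computed from TMM-normalized library sizes. Intervals are 95% intervals of the log2 fold change from the fitted spread. Exact permutation tests were two-sided on log2(CPM + 0.5). The script was tested on simulated counts. Exons, canonical transcripts and promoter sequences came from GENCODE mouse release 39 on GRCm39, which matched 11910 gene IDs. At this depth a floor of 3 counts is 0.187 to 0.226 CPM per library, and that floor reflects counting error only.

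The members and all gene lists were chosen with earlier results of these data known, so no test was made over the group. Single genes were named by rule: members with an adjusted p below 0.05, the 10 lower and 10 higher of smallest P past the cutoff, the 5 most abundant, the 5 highest per kb and the 5 longest, those next to both limits, Tdrd3, Top3b and listed strain and R-loop genes with an unadjusted P below 0.05, and the extremes of 6 lists by role. Roles were then extended by gene name to all 131 members, and other members (those with an unadjusted P below 0.05, those without overlap, the extremes of each role and genes with known parts in T cells or in their role) were named after values were seen. Alternatives were other size factors, other filters, DESeq2 1.42.0, limma 3.58.1 (voom with quality weights), a replicate block, loess corrections for length and GC content, each library left out, other limits on length and count, and, chosen after the data were seen, both KO1 and KO4 left out. A few single items are not reported here.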

Additional observations from a re-analysis of the deposited data

Results flagged for a closer look

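In 6 of 122 groups of 4 libraries looked at, 1 library lay far from the other 3, with a gap to the nearest of them above Dixon's 95% critical value. Chance flags about 1 in 20 such groups. Cacna1d, a calcium channel gene, was at 5.19 CPM in KO3 and at 2.85 to 2.904 CPM in the other KO libraries. Dock4 was at 4.96 CPM in KO3 and at 3.87 to 3.95 CPM in the others. Prkcb was at 71.5 CPM in KO4 against 63.5 to 63.8 CPM, and Camta1 at 13.1 CPM in KO4 against 9.37 to 9.97 CPM. Tcf4 was at 8.71 CPM in KO1 against 10.1 to 10.2 CPM. Snx29 was at 4.66 CPM in WT2 against 4.04 to 4.11 CPM in the other WT libraries. The flagged libraries were KO3 and KO4 for 2 genes each and KO1 and WT2 for 1 gene each.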

How the results depend on the processing

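The median log2 fold change of the members stayed between −0.032 and −0.004 in every alternative. The count of members with an adjusted p below 0.05 was 0 under other size factors, other filters and both loess corrections, 2 with DESeq2, 1 with voom (Sema6d), 3 with a length limit of 200 kb, 1 with the genes left out by name kept (Mid1), and 0 to 4 when 1 library was left out (2 without WT4, 4 without KO2, otherwise 0). With the replicate number as a block it was 3 (Sema6d, Atxn1 and Nebl), but the numbers did not pair the samples: same-numbered libraries correlated at −0.046, 0.004, −0.042 and 0.069, and 1 of 4 KO libraries was closest to its own number. With 1 library left out, members without overlap numbered 9 to 18 (fewer libraries overlap less, and 6.67 to 10.1% of all genes did not), those at the cutoff 3 to 6 lower and 4 to 6 higher. In those fits 1.36 to 2.23% of all genes were lower at the cutoff and 1.29 to 2.41% were higher. Without KO1 and KO4 the counts were 2 lower, 1 higher and 16 without overlap, where 1.03, 1.01 and 12.2% of all genes were. With limits of 200 kb and 500 kb (321 and 30 genes) they were 8 and 1 lower, 10 and 1 higher, and 20 and 3 without overlap, and without the count minimum (177 genes) 6 lower and 9 higher. For these limits the shares over all genes stayed at 1.7% lower, 1.78% higher and 4.89% without overlap. Over all genes, adjusted calls were 30 (0.265%) in the reported fit, which is also the background for the other limits and the kept genes. They were 81 (0.716%) with DESeq2, 95 (0.839%) with voom and 87 (0.769%) with the block. Over the settings that left out libraries they were 3 to 162 (0.0261 to 1.42%).

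Of 59 members looked at singly 47 kept their direction in all 18 alternatives that refit the counts. The sign turned without KO1 and KO4 in Zbtb20 (0.0288), Tox (0.0178), Rabgap1l (0.0105), Vav3 (0.21), Pola1 (0.0312), Cacna1a (0.12), Prkcb (−0.0123), Runx2 (−0.37), Itpr1 (−0.0523) and Ntrk3 (−0.17). With 1 library left out it turned in Vav3 (−0.26 to 0.0615), Cacna1a (−0.10 to 0.0538), Wwox (−0.0765 to 0.0466), Prkcb (−0.0115 to 0.0548), Runx2 (−0.10 to 0.18) and Apbb2 (−0.0795 to 0.26). The cause was not tested. No named member had an adjusted p below 0.05 without KO1 and KO4. For members near 50 counts, standard errors of about 0.26 on the log2 scale limit what this depth can show.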
